A study of Mus musculus with 4 samples.

Results

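The Gapdh locus was examined for its place in a genome-wide peak list from a microglia series that used the antibody AceGAPDH for chromatin precipitation. The labels do not say which libraries entered the list. All peaks with their summit in Gapdh or within 20 kb of it were taken, which gave 3 of the 722 peaks in the series. The members were therefore chosen by position, and the peaks of equal summit height set beside them were chosen by height (11 to 15). The 3 peaks lay at the 3′ end of Gapdh, away from its start, and scored above nearly all other peaks, of similar height or of any height. Of the 39 other peaks of heights 11 to 15, 2.56% reached the lowest Gapdh score, and of all 719 other peaks 3.06% did.

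The series has 4 libraries from C57BL/6 mice that all received LPS (lipopolysaccharide, a bacterial component that provokes inflammation) into the peritoneum for 4 days. Cortical cells were enriched ex vivo with beads that bind CD11b, a surface protein that microglia share with other myeloid cells. Of the libraries, 2 were precipitated with the antibody AceGAPDH and 2 were input chromatin, and no library without LPS was analysed here. The labels do not say whether animals were pooled, or whether libraries 1 and 2 of a group came from separate animals. The deposited values are 1 score and 1 summit height per peak for the series as a whole, so no value per library exists for Gapdh, no difference between conditions can be given, and the identity of the cells cannot be checked on marker expression. The spread between libraries is unknown, and all comparisons below are descriptions without a test. Read depth is also unknown. The 722 peaks had a median length of 161.5 bp, a median height of 8 and a median score of 56.57.

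Gapdh encodes glyceraldehyde-3-phosphate dehydrogenase, a glycolytic enzyme that most cells make in large amounts. The gene is strongly transcribed in nearly every tissue and is widely used as a reference gene. The protein can also enter the nucleus of stressed cells, and the series asked which genes it may act on there. Microglia are the resident immune cells of the brain, and activated myeloid cells are known to raise their use of glycolysis.

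The layout of the locus puts the peaks towards the 3′ end of the annotated gene. Gapdh (RefSeq gene 14433) spans 4616 bp of mm10 chromosome 6, from 125161852 to 125166467. The RefSeq promoter table of build GRCm38.p6, which mm10 represents, places it on the minus strand. Its 3′ end is therefore the lower coordinate and its start the higher one. The table sets the start at 125165773, which is 694 bp inside the upper end of the annotated span. Exon, intron and untranslated region positions were not used here.

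The upstream sequence of Gapdh is shown because it is the regulatory stretch on which no peak was listed, next to the upstream sequence of 2310010J17Rik, a long non-coding RNA gene, whose window carried a peak of equal height. Both are the 250 bases before the start, 5′ to 3′ on the minus strand, from RefSeq (GRCm38.p6). The Gapdh stretch is chr6:125165774-125166023 and the other is chr7:90129475-90129724. Capitals in the Gapdh sequence mark matches to the HIF core motif, and capitals in the other sequence mark the 54 bases that lie under the peak.
Gapdh: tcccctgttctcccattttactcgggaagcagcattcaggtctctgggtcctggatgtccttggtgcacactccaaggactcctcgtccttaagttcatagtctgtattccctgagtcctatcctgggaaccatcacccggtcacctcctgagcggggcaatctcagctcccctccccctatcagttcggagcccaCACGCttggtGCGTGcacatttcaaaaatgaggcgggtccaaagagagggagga
2310010J17Rik: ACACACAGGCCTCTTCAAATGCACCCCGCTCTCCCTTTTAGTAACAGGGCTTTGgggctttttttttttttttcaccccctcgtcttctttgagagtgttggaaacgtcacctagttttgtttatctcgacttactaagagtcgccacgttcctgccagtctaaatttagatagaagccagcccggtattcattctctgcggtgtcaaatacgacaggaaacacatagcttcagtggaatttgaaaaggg

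No peak touched the Gapdh window, and the nearest summit lay 2962 bp away from the start. Peaks on promoters were rare in the whole list: 9 of 32851 windows in the RefSeq table, or 0.0274%, carried one, in 5 of 27025 genes. The empty Gapdh window is thus the usual state of a promoter in this list. Its upstream stretch held 55.6% G and C, where the median over all windows was 52.4%, and 8 CpG dinucleotides, where the median was 6. HIF is the transcription factor of the hypoxia response, which is known to act on many glycolytic genes. Its core motif (ACGTG or GCGTG, on either strand) matched at 2 places, with first bases 54 and 44 bases before the start, and these matches did not overlap. At least 1 such match was present in 38.6% of all windows. Of the classical promoter elements searched on both strands, the core TATAAA was absent from the Gapdh letters and present in 12.4% of all windows. The motif GGGCGG, bound by zinc finger factors, was also absent, and 32.7% of windows held it. The element CCAAT was absent as well and found in 33.8%.

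The peak nearest to the 3′ end of Gapdh ran from 125161977 to 125162303 and was 327 bp long. Its summit at 125162126 lay 274 bp from the 3′ end and 4341 bp from the upper end of the gene. Its height was 15 (exact Poisson 95% interval 8.40 to 24.7) and its score 156.41. This was the tallest and longest of the 3, and the one with the lowest score.

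The middle peak ran from 125162356 to 125162524, a length of 169 bp. Its summit at 125162471 lay 619 bp from the 3′ end, with a height of 12 (Poisson 95% interval 6.20 to 21.0) and a score of 163.68. The third peak, from 125162664 to 125162883 and 220 bp long, had its summit at 125162811, which is 959 bp from the 3′ end. Its height was 11 (Poisson 95% interval 5.49 to 19.7) and its score 167.61. From the 3′ end inwards the heights went down and the scores went up, but all 3 height intervals overlapped, and the scores differed by 7.16% between lowest and highest. The intervals cover counting error only and assume that a height counts independent fragments.

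Counted from the upper end of the annotated span, the summits sat at 79.2%, 86.6% and 94.1% of the gene. From the start in the promoter table they lay 2962, 3302 and 3647 bp away. The steps between summits were nearly even, at 345 and 340 bp. Together the peaks covered 716 bp, or 15.5% of Gapdh, with 191 uncovered bp between them. The lowest edge of the group stood 125 bp inside the 3′ end. Above the upper peak, 3584 bp (77.6% of the gene), including the start, held no listed peak. Since only signal past the caller's limit was listed, weaker signal in that stretch cannot be judged.

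**Figure D1:**
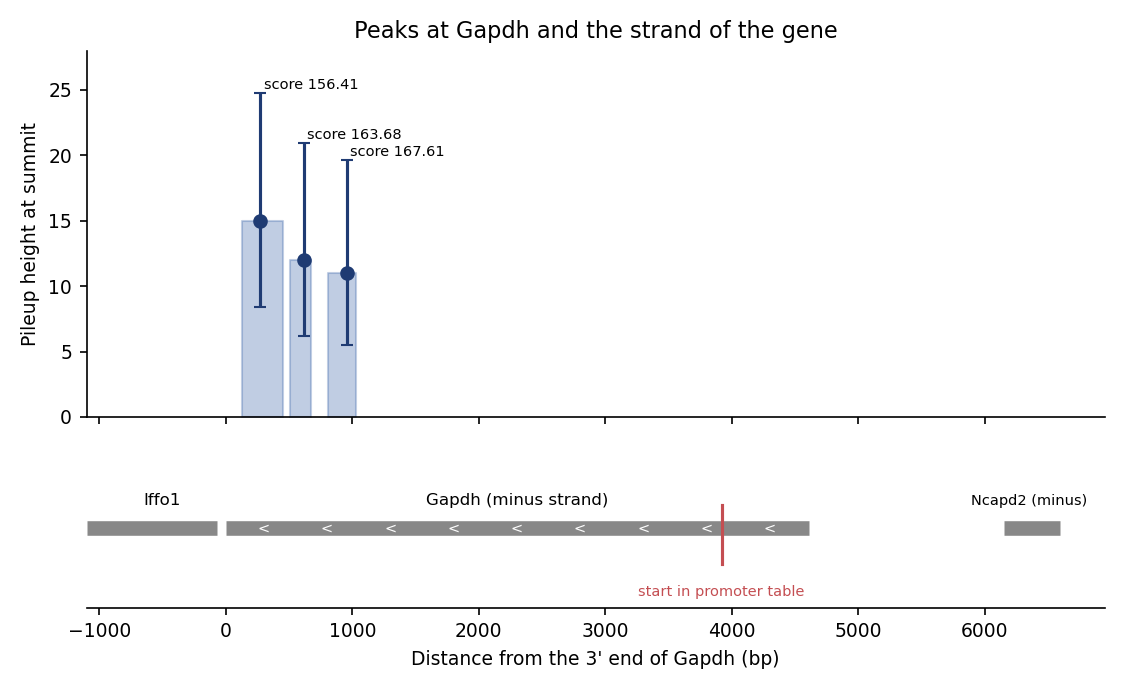
Peaks at Gapdh: the x axis is the distance from the 3′ end of the gene (bp), shaded boxes are the peaks drawn up to their summit height, points are the summits with Poisson 95% intervals, and the lower track shows Gapdh with the parts of Iffo1 and Ncapd2 that fall in the view. The 3 summits stand at 274, 619 and 959 bp, and the rest of the gene up to the start has no peak.

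The neighbouring genes carried no summit. Iffo1, an intermediate filament family gene (125145205 to 125161783), ends 68 bp below Gapdh. Its strand was not used here, so its upper end is not named as a start or a 3′ end. The Gapdh summits lay 343, 688 and 1028 bp from that end, so the first 2 were within 1 kb of both genes. All lay inside Gapdh, so each summit was by position alone nearer to the Gapdh end than to the upper end of Iffo1. Ncapd2, which encodes a condensin subunit (125168007 to 125192100), lies on the minus strand like Gapdh, and its 3′ end is 1539 bp above the upper end of Gapdh. The nearest Gapdh summit was 5196 bp from that 3′ end, on the far side of the Gapdh start.

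Nop2, a nucleolar RNA methyltransferase gene on the plus strand (125131883 to 125144753), has its 3′ end 17098 bp below Gapdh. The nearest Gapdh summit was 17373 bp from it. Scarna10, a small Cajal body RNA gene (125186361 to 125186431), stands 19893 bp above Gapdh, inside the span of Ncapd2. The 20 kb flanks on either side of Gapdh had 0 peaks. The next peak below was 617 kb away, at 124545060 to 124545172, 2727 bp outside C1s1, a complement protease gene (score 70.31, height 11). The next peak above was 714 kb away in Ano2, a calcium-activated chloride channel gene (125876904 to 125877074, score 205.41, height 24). Such distances are not unusual in this list, where the median gap between neighbouring peaks was 2121 kb. Chromosome 6 held 50 peaks in all.

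Among peaks of equal height, the Gapdh peaks had the upper scores. The 39 other peaks with heights from 11 to 15 scored from 51.69 to 157.55, with a median of 71.87 and quartiles of 62.74 and 88.82. Of these, 1 (2.56%, Wilson 95% interval 0.454 to 13.2%) scored at least as high as the lowest Gapdh peak, where 3.06% of all 719 other peaks did. The shares were close, so the Gapdh peaks scored above nearly all peaks of any height. The rule picked heights that the Gapdh peaks have, and score and height come from the same peak call, so both shares only describe the list. The peak of the 39 that passed was near Malt1, a protease gene of NF-kB signalling, with a score of 157.55 at a height of 14. It stood below the other Gapdh peaks.

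At a height of 11, the Gapdh peak scored 167.61 and 17 other peaks scored from 51.69 to 116.34, with a median of 70.31. At a height of 12, the Gapdh peak scored 163.68 and 9 others scored from 54.73 to 101.69, with a median of 67.44. At a height of 15, the Gapdh peak scored 156.41 and the single other peak 71.20. The Gapdh scores were thus 2.38, 2.43 and 2.20 times the median of the others at the same height, and no other peak of those heights reached them. Just outside the height range, the 45 peaks of height 10 scored up to 134.95 (median 64.52), and the 3 peaks of height 16 scored from 112.66 to 142.08. Both sets stayed under the lowest Gapdh score, which 3.06% of all other peaks reached.

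The same pairs of score and height can also be read by height at a given score, or as score per unit of height. These readings restate the same values and give no independent support. All 20 peaks with scores above those of Gapdh had heights of at least 20, with a median of 32.5. Within 10% of the Gapdh scores stood 7 other peaks, with heights from 13 to 106 and a median of 21. By score per unit of height, the Gapdh peaks ranked 3, 7 and 36 of 722, with 15.2, 13.6 and 10.4, where the median of the 39 others was 6.07. The first 2 values exceeded those of all 39, and 3 of the 39 exceeded the third. Length did not set the group apart in the same way: 5, 18 and 9 of the 39 were longer than the Gapdh peaks of heights 15, 12 and 11.

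**Figure D2:**
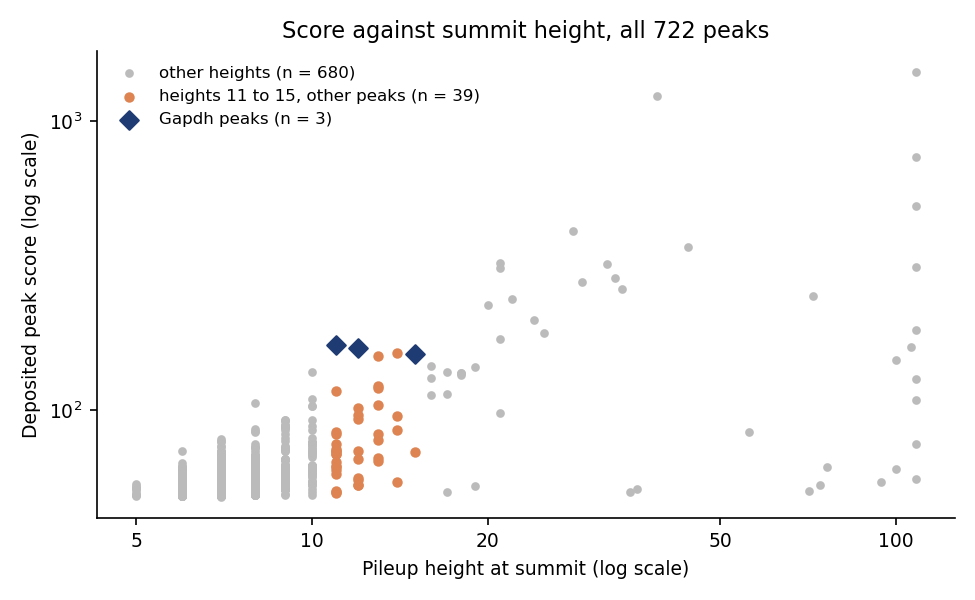
Deposited score against pileup height at the summit for all 722 peaks, both on log scales: blue diamonds are the 3 Gapdh peaks, orange points the 39 other peaks of heights 11 to 15, grey points the remaining peaks. The Gapdh peaks score from 156.41 to 167.61, where the median of the orange points is 71.87.

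Of the 39 peaks of equal height, 1 (2.56%) lay within 1 kb of a 3′ end of known strand, where 1.94% of all peaks did. For some of them, as for the peak near Malt1, the strand of the nearest coding gene was not known. The 5 highest in score were those near Malt1 (3434 bp outside the gene) and near Picalm, a clathrin assembly gene, followed by Npffr2, a neuropeptide FF receptor gene (score 120.47, height 13), Fam227b (119.41, height 13) and Synj2, an inositol phosphatase gene (116.34, height 11). The Picalm summit lay 424 bp before the start of that gene on chromosome 7 (90129671 to 90129848, score 153.45, height 13). It is also the peak whose first bases lie on the 2310010J17Rik sequence printed above. The summits in Npffr2, Fam227b and Synj2 were 47689, 164433 and 49012 bp from the 3′ end of the gene, far beyond the 959 bp of the farthest Gapdh summit.

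Of the 39, 14 had their summit in a coding gene, with scores from 51.69 to 120.47, all below Gapdh. Few or none of 14 would be found above, as 3.06% of all other peaks reached the lowest Gapdh score. The summit nearest Rusc1, an adaptor protein gene on the minus strand of chromosome 3, was the 1 of the 39 within 1 kb of a 3′ end of known strand, at 909 bp and outside the gene (score 73.21, height 11). Picalm gave the 1 within 1 kb of a start. The 3 lowest scores belonged to peaks in Zbtb7c (51.69), near Tbc1d23 (51.86) and near Gm38510 (52.41), each with the same height of 11 as the highest-scoring Gapdh peak.

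Peaks at 3′ ends were few in the whole list. Strand was known for 17492 of 21779 coding genes (80.3%). Of 722 peaks, 14 (1.94%, Wilson 95% interval 1.16 to 3.23%) had their summit within 1 kb of a 3′ end, and 25 (3.46%, 2.36 to 5.06%) within 1 kb of a start. Gapdh supplied 3 of the 14. Among the 48 peaks with scores of at least 100, 3 lay within 1 kb of a 3′ end, and these were the Gapdh peaks. Counted by gene, 12 of 17492 (0.0686%) had a summit at the 3′ end, and Gapdh was the 1 gene with more than 1. At starts, 26 genes had a summit and none had more than 1.

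The other 11 genes with a summit at the 3′ end scored from 50.03 to 97.47, with a median of 57.41 and heights from 6 to 21. None reached the Gapdh scores, but only 3.06% of all 719 other peaks reached the lowest of these. At that share few or none would be found among 11. In 6 of the 11 genes the summit was inside the gene, as in Gapdh, and in 5 outside. The closest in score were Gm40364, whose peak had a height of 21 and a summit 497 bp inside its 3′ end, and Tmem140, a membrane protein gene (score 91.4, height 9, 86 bp outside). The Tmem140 summit also lay inside another gene, Cyren, 48.2% along it and 3261 bp from the Cyren 3′ end. Named by the same list were Adam10, a membrane metalloprotease gene (score 56.54, height 9, 750 bp inside), and Cltc, the clathrin heavy chain gene (54.9, height 8, 705 bp inside). Tle4, a corepressor gene, had the lowest score of the whole list (50.03) with a summit 34 bp inside its 3′ end. These genes were picked from the list after their values were seen.

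Within coding genes of known strand, the other 289 placements of a summit in a gene spread over the whole length. They fell 87, 65, 59 and 78 times in the successive 25% stretches from the 5′ end of the annotated span to its 3′ end. The last 25% held 27.0% of them (Wilson 95% interval 22.2 to 32.4%), and all 3 Gapdh summits lay there. Most of these genes were far longer than Gapdh, with a median of 107152 bp over the placements. In genes of up to 10 kb, 4 of 10 summits lay in the last 25% and 3 in the first 25%. The latter were in Cst3, the cystatin C gene (3.56% along the gene), Hmgb2, a chromatin protein gene (7.99%), and Tgif1, a homeobox repressor gene (11.8%).

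**Figure D3:**
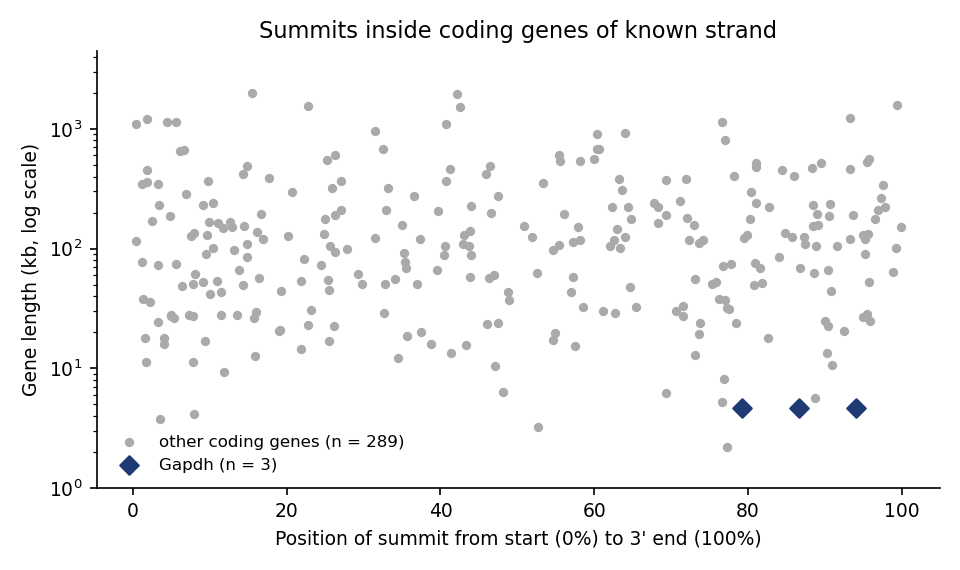
Position of each summit inside a coding gene of known strand, from start (0%, here the 5′ end of the annotated span) to 3′ end (100%), against the length of the gene on a log scale: blue diamonds are the 3 Gapdh summits and grey points the 289 other placements. Gapdh lies at 79.2, 86.6 and 94.1% in a gene of 4616 bp, while the grey points spread over all positions.

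The density of peaks within Gapdh was high for a coding gene. Of 21779 coding genes, 337 (1.55%) held a summit, 328 of them 1, 6 of them 2, and 3 (0.0138%) at least 3. Those 3 were Gapdh, Sfi1, whose product acts at centrosomes (gene length 71498 bp), and Zfhx3, which encodes a zinc finger homeobox factor (682326 bp). Per kb of gene, Gapdh had 0.650 summits, Sfi1 0.0420 and Zfhx3 0.00440, and Gapdh ranked 1 of 337. This ranking, like that by share covered, includes only genes with a summit and favours short ones. Gm40364 (2185 bp), Cst3 (3791 bp) and Hmgb2 (4157 bp) ranked 2, 4 and 5 per kb with 1 summit each. The median length of the 337 genes was 107152 bp. By the share of the gene covered by peaks, Gapdh ranked 2 with 15.5%, after Gm40364 with 26.0%, and the median of the 337 was 0.149%. Sfi1 ranked 4 with 9.05%. Its peaks were taller (heights 35 to 56) and scored lower (51.89 to 83.92) than those of Gapdh.

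Close neighbours were uncommon. The median gap between neighbouring peaks on a chromosome was 2121 kb over 701 pairs, and 7 pairs (0.999%) had a gap under 1 kb. The pairs in Gapdh had gaps of 52 and 139 bp, the smallest and the third smallest. Between them came a pair in Sfi1 with a gap of 66 bp, whose summits were 4072 bp apart. Of the other 4 pairs, 3 belonged to 1 run on chromosome 2 whose nearest gene was Gm33780, with heights of 106 to 108, and 1 lay nearest to A930007I19Rik, with heights of 10 and 5. The Gapdh heights of 11 to 15 were below those of the Sfi1 and chromosome 2 pairs and above those nearest to A930007I19Rik. In the whole list they were high, at ranks 47, 61 and 71 of 722. Whether the 3 peaks are separate sites or pieces of 1 enriched stretch was not tested.

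**Figure D4:**
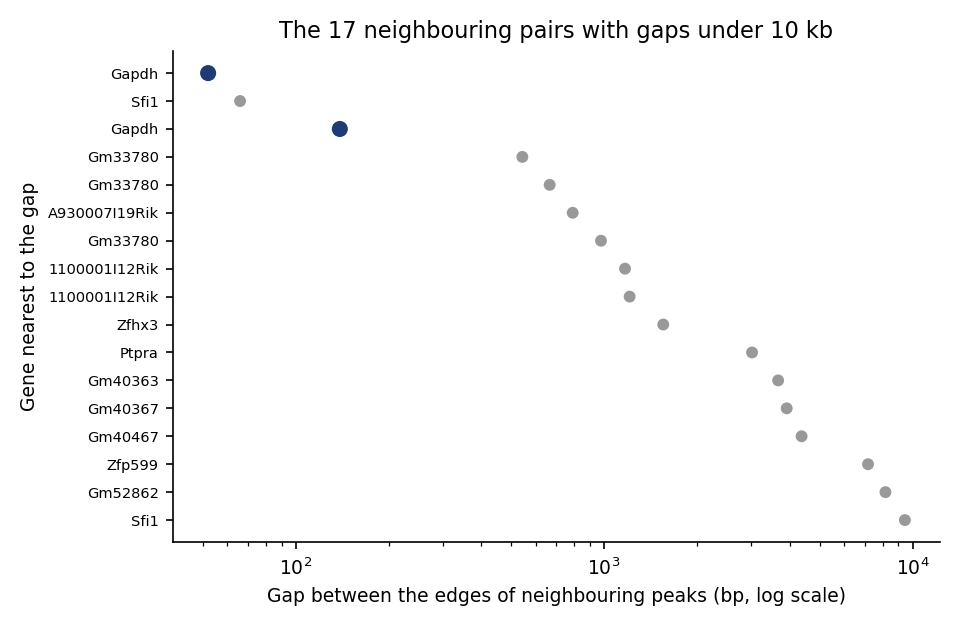
Gaps between the edges of neighbouring peaks (bp, log scale) for the 17 pairs with a gap under 10 kb, each named by the gene nearest to the gap: blue points are the pairs in Gapdh and grey points all others. The Gapdh gaps are 52 and 139 bp, with the 66 bp gap in Sfi1 between them.

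The other genes of glycolysis were set beside Gapdh. Of 26 genes of the pathway and its lactate branch, 2 carried a summit within 5 kb or inside the gene, Gapdh and Ldhc, where 2% of all coding genes did. Ldhc encodes the testis lactate dehydrogenase subunit, and its peak scored 53.67 with a height of 7, with the summit 1586 bp inside the start. The same peak lay 7222 bp beyond the 3′ end of Ldha, the gene of the main muscle-type subunit. Gpi1, which encodes glucose-6-phosphate isomerase, had its nearest summit 8851 bp beyond its 3′ end (score 102.84, height 10). That summit lay inside another coding gene, Pdcd2l, 34.5% along it. The 25 genes other than Gapdh had a median distance of 578 kb to the nearest summit. Eno2 and Tpi1, the enolase and triose-phosphate isomerase genes on the same chromosome as Gapdh, were 215 and 265 kb from theirs. Without Gapdh, the count within 5 kb was 1 of 25. Within 20 kb, 4 of 26 (15.4%, Wilson 95% interval 6.15 to 33.5%) had a summit, Gapdh, Ldhc, Ldha and Gpi1, where 3.12% of all coding genes did. Ldhc and Ldha share 1 peak, and without Gapdh the count was 3 of 25.

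Other genes used as references for strong and steady transcription were listed for comparison. Of 28, 0 had a summit inside the gene, where 1.55% of all coding genes did, a share at which few or none would be found among 28. The 28 genes were also short, with a median length of 4687 bp, where the coding genes that held a summit had a median of 107152 bp. Within 5 kb, 2 of 28 (7.14%, Wilson 95% interval 1.98 to 22.6%) had one, Rps29 and Ftl1, where 2% of all coding genes did. The Rps29 summit, near a ribosomal protein gene, was 144 bp outside it (score 102.83, height 10), at a place that also holds the 7SL RNA gene Rn7s1, which has a near-identical copy. The Ftl1 summit, near a ferritin light chain gene, lay 449 bp before its start (score 50.72, height 5). Among the remainder, Eef1a1, a translation elongation factor gene, came nearest with 27.9 kb. The median distance over the 28 was 875 kb. A count of 0 of 28 has a Wilson 95% interval that reaches 12.1%.

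Of 4 annotated Gapdh-like copies, 0 had a summit within 5 kb. With 2% of all coding genes having one, a count of 0 of 4 says nothing particular about the copies. Gapdhs, the sperm form of the enzyme on chromosome 7, was 1826 kb from the nearest summit. The pseudogenes Gapdh-ps14 and Gapdh-ps16 on chromosome 8 were 1012 and 752 kb away, and Gapdh-ps15 on Y was 3279 kb away. The table names no further copy by this symbol, although the mouse genome is known to hold many Gapdh-like sequences. The sources used here do not say how reads that match several copies were treated. The heights at Gapdh are uncertain by that much, and the part of such reads in the result was not tested.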

How the data were processed

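The libraries were ChIP and input chromatin of microglia from LPS-treated mice. The submitters' processing notes name FastQC, Bowtie2, MACS and mm10. The sources used here give neither their versions and settings nor the libraries used for calling peaks. The authors deposited 1 peak list, whose score per peak has no stated scale, and 1 summit list, whose pileup signal is called height. Both are the authors' own values, used within this list only.

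Positions were converted to 1-based and placed by summit against a RefSeq gene table (GRCm38.p6). Of 49943 genes on 21 chromosomes, 340 that start in the first 3 Mb (other than on Y) were left out as doubtful chromosome coordinates, which kept 49603. Strand came from the RefSeq promoter table, and 4287 of 21779 coding genes had no entry. The 5′ and 3′ ends are the ends of the annotated span, and the starts of other genes are 5′ ends of this kind. All genes of both gene lists matched by symbol. Intervals are exact Poisson for heights and Wilson for shares, both at 95%. No peak was checked against known regions of artefact signal.

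Named genes were Gapdh and its annotated copies, all genes within 20 kb, and, among other peaks of heights 11 to 15, the 5 highest and 3 lowest scores and those within 1 kb of a gene end. Genes with at least 3 summits, pairs with gaps under 200 bp and listed genes with a peak within 5 kb were also named. Ldha, Gpi1, Pdcd2l, Eno2, Tpi1, Eef1a1, C1s1, Ano2, Cyren, A930007I19Rik, Gm33780 and 2310010J17Rik fall outside this rule and were chosen after their values were seen. The same holds for the genes described at 3′ ends or in short genes. The members and lists were chosen with earlier results of these data known. Peak sequences were not analysed here. Tables were computed in Python 3.11.15 with pandas 2.3.3 and numpy 2.4.6, intervals with scipy 1.17.1, figures with matplotlib 3.10.9.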

Additional observations from a re-analysis of the deposited data

How the results depend on the processing

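Of 30 alternatives run, 18 left the value within 1.5 times (counts) or within the 95% interval (shares) of the reported one. The 3 peaks at Gapdh remained with windows of 5, 50 and 100 kb, with any overlap and at scores of at least 100. These alternatives could not change the count, because the next peaks lay 617 and 714 kb away and the lowest Gapdh score was 156.41. A window of 1 Mb gave 5. All 3 stayed nearer to the 3′ end than to the start with the start taken from the promoter table or with peaks placed by their upper edge. This too followed from the positions, as did the 100 kb window for the copies, the nearest of which was 752 kb from a summit. Such fixed outcomes count among the 18. The share of equal-height peaks that reach the lowest Gapdh score, 2.56%, became 0% among peaks in coding genes (0 of 14), of similar length (0 of 27), of the same single height (0 of 27) and against the highest Gapdh score (0 of 39). The peak near Malt1 drops out of each by construction: it lies outside coding genes, is 81 bp long, has a height of 14 and scores below the highest Gapdh peak. Pairs under 1 kb apart fell from 7 to 4 when summits were measured. The share at 3′ ends was 0.693% within 500 bp, 3.74% within 2 kb and 6.25% at scores of at least 100, where Gapdh supplied all 3 peaks, and 1.53% without Gapdh. The share at starts was 1.66% within 500 bp and 5.40% within 2 kb. Glycolysis genes with a summit went from 7.69% within 5 kb to 15.4% within 20 kb, where all coding genes went from 2% to 3.12%. Both glycolysis shares count Gapdh, the gene chosen for this report. Without Gapdh the counts were 1 of 25 and 3 of 25. Of those 3 genes, Ldhc and Ldha share 1 peak, and the peak counted for Gpi1 lies inside Pdcd2l. The reference genes with a summit went from 7.14% to 0% when the gene alone was counted. The start from the promoter table, placement by the upper edge, the 100 kb window for the copies and the score divided by height were chosen after seeing the data. No paired analysis was possible because the deposited lists hold no value per library. With heights of 11 to 15, differences in height among the Gapdh peaks were not detectable.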
